A study of Homo sapiens with 3 samples.

Results

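SRRM4, the transcriptional repressor REST and 8 related regulators of neuronal splicing and neuronal gene silencing were followed in RNA-seq of 22Rv1 WT cells. The 10 genes were chosen by name, not by level, as SRRM4 and its paralog SRRM3, REST and its corepressor RCOR1, and the PTBP, NOVA and RBFOX genes PTBP1, PTBP2, PTBP3, NOVA1, NOVA2 and RBFOX2. All 10 had a row among the 27024 counted genes. The study deleted a prostate cancer risk enhancer on chromosome 12 to ask which genes depend on it, and SRRM4, on the same chromosome, is a gene it follows in detail. The libraries analysed here are the 3 labelled WT. By the study's text, WT stands for 22Rv1 cells in which that enhancer is intact and both copies carry the non-risk allele. No drug treatment is stated for these libraries. 22Rv1 is an established human prostate carcinoma line, here from ATCC and grown in RPMI medium with serum. The study isolated total RNA from cultured cells, and its text does not state how RNA was selected for these libraries. The enhancer KO and risk-allele libraries were not analysed here, so a single group was described and no condition was compared with another. The study's text calls the WT samples control clones in one place and biological replicates in another, so the SD given below may be a spread between clones or between cultures.

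SRRM4 is a serine- and arginine-rich splicing activator of neurons that binds upstream of very short exons and promotes their inclusion. REST silences neuronal genes in other cells by binding a DNA element called RE1 and recruiting corepressors through RCOR1, and in neurons SRRM4 directs splicing of the REST transcript towards a truncated form with weaker repressor activity. PTBP1 holds down many neuronal exons in dividing cells, among them one that its paralog PTBP2 needs for a stable transcript, and prostate tumours that turn towards a neuroendocrine state are known for raised SRRM4.

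The recovered depth was between 35675670 and 38629080 reads per library on counted genes. Levels are the deposited normalized counts, in which the reads of a library were divided by its size factor, and genes were set against each other only as normalized counts per kilobase of their canonical transcript. A gene was called expressed at 1 CPM (counts scaled to library size, with TMM library sizes) or more in all 3 libraries. The prostate identity of the cells was visible in the counts. All 9 luminal prostate markers were expressed, their summed level lay between 3369 and 3397 CPM, and KRT8, a luminal keratin, was the highest of them per kilobase while KLK3, which encodes PSA, was the lowest. Of 7 neuron markers, 4 were expressed (TUBB3, MAP2, SNAP25 and SYN1), at a summed level of 224 to 228 CPM, while DCX, NEFL and RBFOX3 were not. Of the glia markers 1 of 5 (MBP) and of the fibroblast markers 1 of 3 (COL1A1) passed, at summed levels of 13.1 to 15.3 and 8.82 to 11.0 CPM. None of 4 leukocyte markers and neither of the endothelium markers with a row passed.

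SRRM4 was the second most abundant of the 10 genes per kilobase, and NOVA2 was the only one that was not expressed. Of the 10 genes 9 were expressed, against 47.7% of all counted genes, a share taken without a filter on gene type. PTBP1 was the highest at 5362 ± 88.4 normalized counts per kilobase (SD, n = 3), and NOVA1, at 103 ± 1.87 (SD, n = 3), was the lowest of the 9. The median over the 12821 expressed genes with an annotated length was 315 normalized counts per kilobase. PTBP1, SRRM4, PTBP3, RBFOX2, REST and SRRM3 lay above this median, and RCOR1, PTBP2 and NOVA1 lay below it. Because these are bulk libraries, fewer cells that make a transcript and less of it in each cell cannot be told apart.

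**Figure D1:**
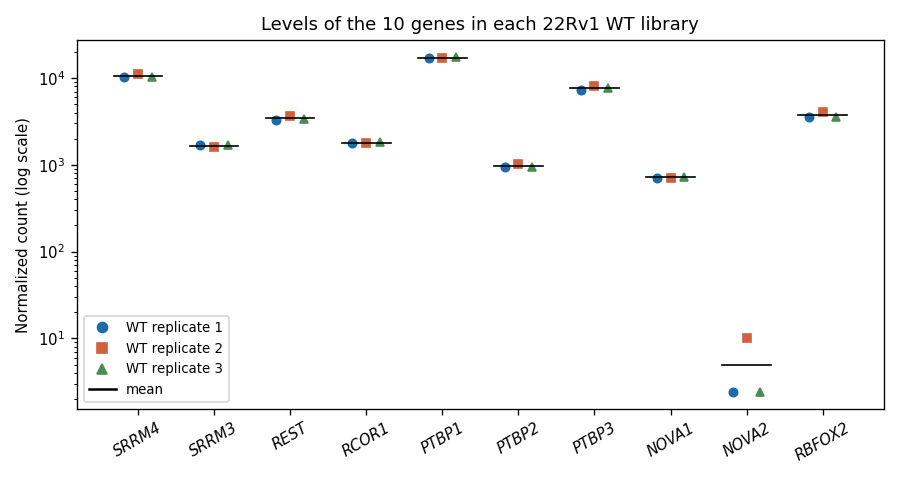
Normalized counts (log axis) of the 10 genes in each of the 3 WT libraries, with 1 point per library and a line at the mean. The points of 9 genes lie close together around means from 719 for NOVA1 to 17191 for PTBP1, and NOVA2 alone lies near the bottom, at 2.4, 10.2 and 2.4.

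SRRM4 (ENSG00000139767) spans chr12:119419346-119600856 on the plus strand of GRCh37, and its canonical transcript has 8431 bases. It reached 10399 normalized counts in replicate 1, 11139 in replicate 2 and 10163 in replicate 3, from 13162, 13163 and 12909 reads. Replicate 2 was the highest and replicates 1 and 3 lay close to each other. The mean was 10567 ± 509 normalized counts (SD, n = 3), or 1253 ± 60.4 per kilobase, which was higher than in 84.7% of the expressed genes. Per kilobase it ranked 1965th of 12821, between STOM and PIP4K2C just above, both at 1254, and MAPK11 at 1253 and RABGGTB at 1252 just below. With a single condition no pattern across conditions exists, so these neighbours are alike in level only. A long non-coding gene on the opposite strand, ENSG00000257095, overlaps exons of SRRM4 and has no row of its own, and whether reads were counted by strand is not given in the sources used here, so reads of that gene could be counted under SRRM4.

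SRRM3, a paralog that acts on some of the same neuronal microexons, lies at chr7:75831214-75916605 on the plus strand. Its normalized counts were 1690, 1608 and 1706 in replicates 1 to 3, so that the library highest for SRRM4 was the lowest for SRRM3. The mean was 1668 ± 52.6 normalized counts (SD, n = 3), or 461 ± 14.5 per kilobase. The ratio of SRRM4 to SRRM3 per kilobase was 2.64, 2.97 and 2.55 in the 3 libraries, with a mean of 2.72 ± 0.220 (SD, n = 3). It was 6.78 when coding length was used in place of transcript length, and the coding model of SRRM3 lifted to GRCh37 is incomplete, with 1958 bases, which is not a whole number of codons. The ubiquitous family members SRRM1 and SRRM2 encode general splicing coactivators. Of the summed level of the 4 SRRM genes per kilobase, SRRM2 made up 46.7%, SRRM4 23.0% ± 0.570 (SD, n = 3), SRRM1 21.9% and SRRM3 8.46%. The ranges of SRRM4, 1205 to 1321 per kilobase, and SRRM1, 1144 to 1248, overlapped, so the neuronal SRRM4 and the ubiquitous SRRM1 could not be placed apart on this length scale. With merged exons SRRM4 stood at 864 and SRRM1 at 558 per kilobase, and with coding length at 5765 and 1646.

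REST lies at chr4:57774042-57832974 on the plus strand. It reached 3306 normalized counts in replicate 1, 3636 in replicate 2 and 3355 in replicate 3, with the same library on top as for SRRM4. The mean was 3432 ± 178 normalized counts (SD, n = 3), or 470 ± 24.4 per kilobase, higher than in 61.9% of the expressed genes. SRRM4 was above REST per kilobase in each library, with ratios of 2.73, 2.66 and 2.63 and a mean of 2.67 ± 0.0518 (SD, n = 3). The direction held with merged exons, at 2.37, and with coding length, at 5.53. Gene counts do not separate isoforms, so how much of the REST level is the truncated neuronal form was not measured. Exons of REST also overlap those of NOA1 on the opposite strand, a gene with a row of its own.

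RCOR1, which links REST to the histone demethylase KDM1A and to histone deacetylases, lies at chr14:103058986-103196898 on the plus strand. Its normalized counts of 1801, 1763 and 1809 were among the steadiest of the 10 genes, with a coefficient of variation of 1.39%. The mean per kilobase was 311 ± 4.32 (SD, n = 3). The ratio of RCOR1 to REST per kilobase was 0.665 ± 0.0422 (SD, n = 3), but with coding length it was 1.18, so the order of this pair depends on the length used. Of the 3 RCOR paralogs, RCOR3 made up 46.5% of the summed level per kilobase, RCOR1 38.5% and RCOR2 15.0%. This order turned with merged exons, where RCOR1 stood at 289 and RCOR3 at 185 per kilobase, and with coding length, where they stood at 1231 and 1014.

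The machinery around REST was transcribed throughout. All 21 genes listed as REST corepressor subunits and partners were expressed, against 47.7% of all counted genes. Their median was 752 normalized counts per kilobase, against 37.4 over all counted genes with a length and 315 over the expressed ones. HMG20B, a subunit of the complex of RCOR1 and KDM1A, was the highest at 6240 ± 152 per kilobase (SD, n = 3). All 7 genes listed for the turnover of REST protein were expressed as well, against the same 47.7%. They ran from the ubiquitin ligase scaffold CUL1 at 1268 ± 25.6 per kilobase (SD, n = 3) down to BTRC, the F-box protein that recognises REST for degradation, at 166 ± 5.18.

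Genes known to be silenced by REST in other cells were in part transcribed at high levels. Of 28 genes listed as RE1 neuronal targets, 21 were expressed, or 75.0% against 47.7% of all counted genes. The 47.7% was taken without a filter on gene type, and the list was chosen with earlier results known. The gap is therefore not a test of the list. VGF, the precursor of neuroendocrine secretory peptides, was the highest, with 36479, 34450 and 36716 normalized counts and 14066 ± 488 per kilobase (SD, n = 3), which is above every one of the 10 genes described here. BDNF, a neurotrophin, was the lowest of those expressed, with 58.5, 52.5 and 48.0 normalized counts. The remaining 7 were CALB1, with 35 to 37 reads, NEFL, with 0, 4 and 0 reads, and STMN2, NEFM, DCX, CRH and INSM1, which held at most 1 read in any library. CRH and INSM1 were at 0 in all 3 libraries, and a count of 0 allows up to 3 reads. The list thus ran from 0 reads to VGF, its only gene above PTBP1 per kilobase, in cells that expressed REST and all its listed partners. The median over the 28 genes was 85.0 normalized counts per kilobase, against 37.4 over all counted genes with a length and 315 over the expressed ones.

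To show what an RE1 looks like at such genes, the RefSeq promoter windows of GRCh38.p14, from 250 bases before to 50 after each start, were searched on both strands for CAGCACC followed by GGACAG after 1 to 12 bases. These are the left and right parts of the element, and the 2 strings do not overlap each other. A match is a string of letters, not a measured binding site. Both parts occurred in 4 of the 17 RE1 target genes with a window, against 0.183% of all 27305 genes with a window. Because the list names known RE1 targets, a share above that of all genes was built into the choice. The 4 are printed with the matched parts in capitals, SYN1 from chrX:47620070-47620090 on the minus strand, GRIA2 from chr4:157220388-157220408 on the minus strand, SCG3 from chr15:51681511-51681537 on the plus strand and UNC13A from chr19:17688340-17688366 on the plus strand, each with 2 bases before and 4 after the match.
SYN1: ttCAGCACCgcGGACAGtgcc
GRIA2: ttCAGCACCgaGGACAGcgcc
SCG3: ttCAGCACCcacagggcGGACAGcgct
UNC13A: ttCAGCACCgggggcgcGGACAGcgcc
SYN1 and GRIA2 had 2 bases between the parts and SCG3 and UNC13A had 8. All 4 genes were expressed, against 47.7% of all counted genes and 21 of the 28 listed targets. They were not compared with the listed targets that lacked both parts. The synaptic vesicle protein SYN1 was at 46.9 ± 4.25 normalized counts per kilobase and the glutamate receptor subunit GRIA2 at 111 ± 11.6 (SD, n = 3 each). The granin SCG3 was at 646 ± 32.5 and the vesicle priming factor UNC13A at 1186 ± 49.3 (SD, n = 3 each).

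Of the 10 genes themselves, 9 had a window, and none of these held both parts within it. SRRM4, SRRM3, PTBP1 and NOVA1, that is 4 of 9, held the left part, against 9.30% of all genes with a window, a share that includes genes with both parts. The right part occurred in 3 of 9 (SRRM3, REST and RCOR1), or 33.3% against 24.0% of all genes. The left matches are shown for comparison with the complete matches, at chr12:118981570-118981590 (minus strand), chr7:76201918-76201938 (plus strand), chr19:797300-797320 (minus strand) and chr14:26597987-26598007 (minus strand) of GRCh38.p14, with the left part in capitals.
SRRM4: ggCAGCACCaggagagaagag
SRRM3: ggCAGCACCcgcggggaggca
PTBP1: gcCAGCACCtcccactggcca
NOVA1: ggCAGCACCagcagcgggagc
The absence of the right part after these matches says only that its letters do not follow within 12 bases inside the window. The NOVA1 match lies so near the window's end that the longest of these distances were not searched.

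PTBP1 (chr19:797075-812327, plus strand) reached 16948, 17124 and 17503 normalized counts, a mean of 17191 ± 284 (SD, n = 3), and 97.1% of the expressed genes were lower per kilobase. Its highest library, replicate 3, exceeded its lowest, replicate 1, by 1.03 times. The microRNA gene MIR4745 overlaps an exon of PTBP1 on the same strand and has no row of its own. PTBP2, the paralog that takes over in developing neurons, lies at chr1:97187221-97289294 on the plus strand and reached 951, 1028 and 948 normalized counts, or 294 ± 13.7 per kilobase (SD, n = 3). PTBP1 therefore exceeded PTBP2 by 18.5, 17.3 and 19.1 times per kilobase, with a mean ratio of 18.3 ± 0.950 (SD, n = 3). With the merged exons of all annotated transcripts, which for PTBP2 add up to 20122 bases, the ratio was 47.2. PTBP3, a further paralog with a similar RNA-binding domain layout, lies at chr9:114979996-115095944 on the minus strand and had 7331, 8206 and 7734 normalized counts, or 1079 ± 60.9 per kilobase (SD, n = 3). PTBP1 was 4.98 ± 0.266 times PTBP3 per kilobase (SD, n = 3), and this ratio fell to 2.43 with merged exons and 2.09 with coding length. PTBP1 made up 79.6%, PTBP3 16.0% and PTBP2 4.36% of the summed level of the family per kilobase. All 3 listed partners of PTBP1 were expressed, against 47.7% of all counted genes. They ran from MATR3, a nuclear matrix protein that binds PTBP1, at 2792 ± 109 per kilobase to RAVER2 at 200 ± 9.91 (SD, n = 3).

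The NOVA family, named for neuronal antigens of paraneoplastic disease, was represented almost by NOVA1 alone. NOVA1 (chr14:26912296-27067239, minus strand) had 713, 709 and 734 normalized counts, and NOVA2 (chr19:46436992-46477302, minus strand) had 2.4, 10.2 and 2.4, from 3, 12 and 3 reads. At 0.0784, 0.336 and 0.0778 CPM, NOVA2 lay below the threshold for expression in each library. The per-kilobase ratio of NOVA1 to NOVA2 was 345, 80.8 and 355 in replicates 1 to 3, and from the reads summed over the libraries it was 173, with an exact 95% counting interval of 109 to 292. The interval covers counting error only.

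RBFOX2 (chr22:36134783-36424872, minus strand), the widely expressed member of a family that binds UGCAUG next to regulated exons, had 3578, 4066 and 3569 normalized counts, a mean of 3738 ± 285 (SD, n = 3) and 518 ± 39.5 per kilobase. The files list it on 2 rows with the same counts, which were taken once. It made up 99.6% of the summed level of the RBFOX genes per kilobase. The neuronal members were near zero, with 7, 7 and 2 reads for RBFOX1 and 6, 1 and 7 reads for RBFOX3.

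In the full order per kilobase, PTBP1 was followed by SRRM4, PTBP3, RBFOX2, REST, SRRM3, RCOR1, PTBP2, NOVA1 and NOVA2. The 3 values of one gene lay entirely above those of the next in 6 of the 9 neighbouring pairs. The exceptions were RBFOX2 and REST, REST and SRRM3, and RCOR1 and PTBP2, whose ranges overlapped. Within libraries, RBFOX2 was above REST in all 3, at 496 against 452, 564 against 497 and 495 against 459 per kilobase, whereas REST was above SRRM3 in 1 of 3 and RCOR1 above PTBP2 in 2 of 3. SRRM4 and PTBP3 did not overlap, although their means differed by only 1.16 times. With merged exons PTBP3, at 942, stood above SRRM4, at 864 per kilobase. Merged exons also placed RCOR1 (289) above SRRM3 (243), NOVA1 (69.6) above PTBP2 (48.5) and REST (365) above RBFOX2 (303). With coding length RCOR1 (1231) stood above SRRM3 (852) as well, so these neighbours are in order only on the length used. The genes of a pair were measured in the same 3 libraries, and since an exact permutation test over 3 pairs cannot give a two-sided p below 0.25, no p is given.

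**Figure D2:**
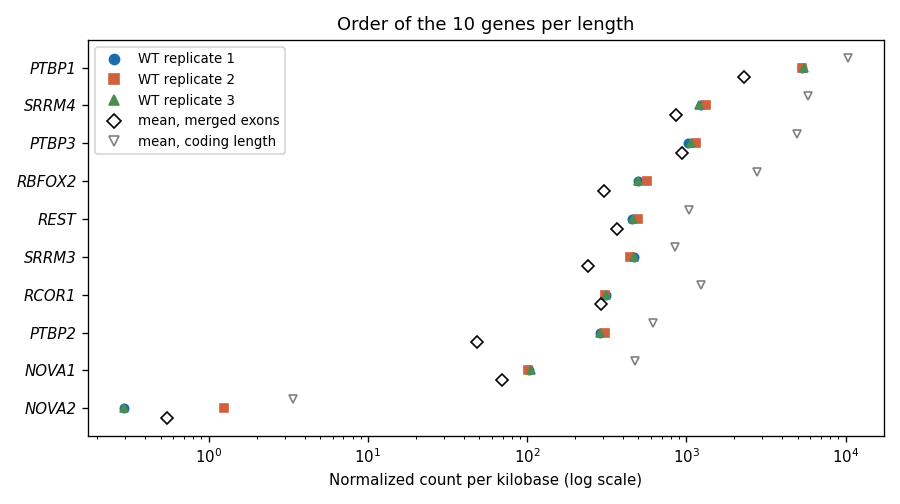
Normalized counts per kilobase (log axis) of the 10 genes, with filled symbols for the 3 WT libraries on canonical transcript length and open symbols for the mean on merged exons or coding length. PTBP1 is first on all 3 lengths and NOVA2 last, while genes between them change places, PTBP3 passing SRRM4 on merged exons and RCOR1 passing REST on coding length.

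The partners and targets of SRRM4 were set against the 47.7% of all counted genes that were expressed. Its splicing partners and the other SRRM genes were expressed in 4 of 4 cases, from RNPS1, which binds exonic enhancers, at 3687 ± 179 normalized counts per kilobase to SRRM1 at 1195 ± 52.1 (SD, n = 3). Of 13 genes known to carry neuronal exons that SRRM4 regulates, 12 were expressed, with EIF4G1, a translation initiation scaffold, the highest at 4246 ± 49.8 per kilobase and ITSN1, an endocytic scaffold, the lowest at 61.7 ± 3.87 (SD, n = 3). BIN1, with 26, 31 and 21 reads, was the exception. The host transcripts of these exons were thus measured, but gene counts hold no value for the exons themselves.

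**Figure D3:**
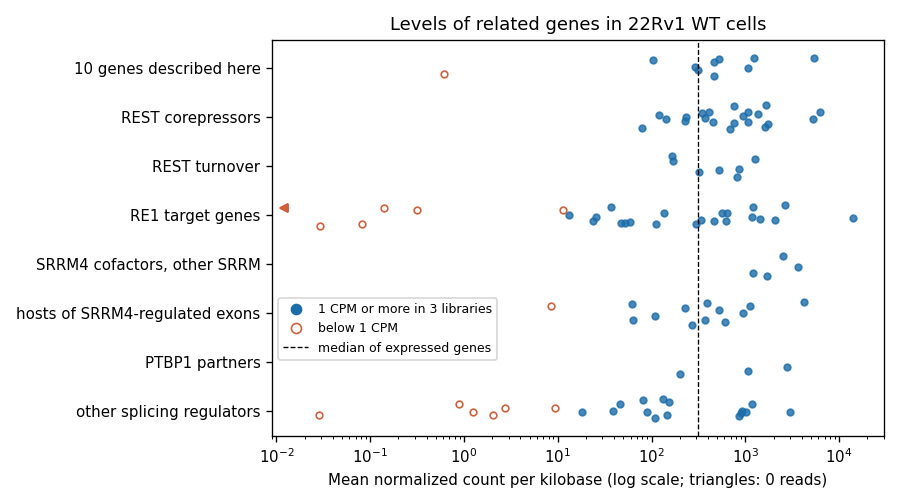
Mean normalized counts per kilobase (log axis) of the genes in each list, with filled points for genes at 1 CPM or more in all 3 libraries, open points for the others and a dashed line at 315, the median of expressed genes. The corepressor and turnover genes of REST are all filled, and the RE1 target genes spread from 0 reads (CRH and INSM1, which share 1 triangle) to VGF at 14066.

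The spread between the WT libraries was tested on the recovered reads with a chi-square test of homogeneity and Benjamini-Hochberg adjustment over 14646 genes. SRRM4 (adjusted p = 6.49e-13), PTBP3 (2.51e-12), RBFOX2 (6.28e-11), REST (8.30e-05) and PTBP1 (0.0290) differed between libraries by more than counting noise, that is 5 of the 9 genes that could be tested, against 41.9% of all genes tested. PTBP2 (0.123), SRRM3 (0.248), RCOR1 (0.777) and NOVA1 (0.840) did not pass, and NOVA2 had too few reads for the test. The differences were small, and the highest library exceeded the lowest by 1.10 times for SRRM4, 1.10 times for REST, 1.12 times for PTBP3 and 1.14 times for RBFOX2. When the chi-square was scaled by that of the 200 genes nearest in reads, 0 of the 9 genes passed, against 0.649% of all genes, and with the trended dispersion of edgeR added, 0 of 9 passed, against 0.416%. Without replicate 2 the plain chi-square called 2 genes, PTBP1 (adjusted p = 0.00991) and PTBP3 (0.00335), and no longer SRRM4, REST or RBFOX2. The share of all genes called without replicate 2 is not given here, so this drop cannot be read as particular to these genes. RBFOX2 alone had an unadjusted p under 0.05 in the scaled and the dispersion test, at 0.0176 and 0.0256. Its coefficient of variation of 7.61% was higher than in 95.9% of the genes at a similar level, and the values for PTBP3 (5.65%), SRRM4 (4.82%) and REST (5.19%) were higher than in 91.5%, 87.9% and 83.1% of theirs. RCOR1 and NOVA1 stood at the other end, above only 9.08% and 7.25%.

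The libraries did not share the highest values evenly. SRRM4, REST, PTBP2, PTBP3, RBFOX2 and NOVA2 were highest in replicate 2, SRRM3, RCOR1, PTBP1 and NOVA1 were highest in replicate 3, and none was highest in replicate 1. Over all 14646 tested genes, 31.9% were highest in replicate 1, 32.6% in replicate 2 and 35.5% in replicate 3. In replicate 2 the deviation from the mean of the 3 libraries was 0.08 on the log2 scale for SRRM4, REST, PTBP2 and PTBP3 and 0.12 for RBFOX2, while SRRM3 fell by 0.05 and PTBP1 by 0.01. PTBP3 deviated as far in replicate 1, at -0.08, as in replicate 2. Long transcripts in general were higher in replicate 2. Of the 2561 tested genes with a canonical transcript of 6 kb or more, 58.0% were highest in replicate 2, against 21.5% of the 3827 genes under 2 kb, and the median deviation of the long genes in that library was 0.04 on the log2 scale. SRRM4, REST, PTBP3, RBFOX2 and NOVA2 belong to this long class, as does NOVA1, which did not follow it, and PTBP2 is shorter at 3321 bases. The part of transcript length in the spread of these genes was not tested.

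**Figure D4:**
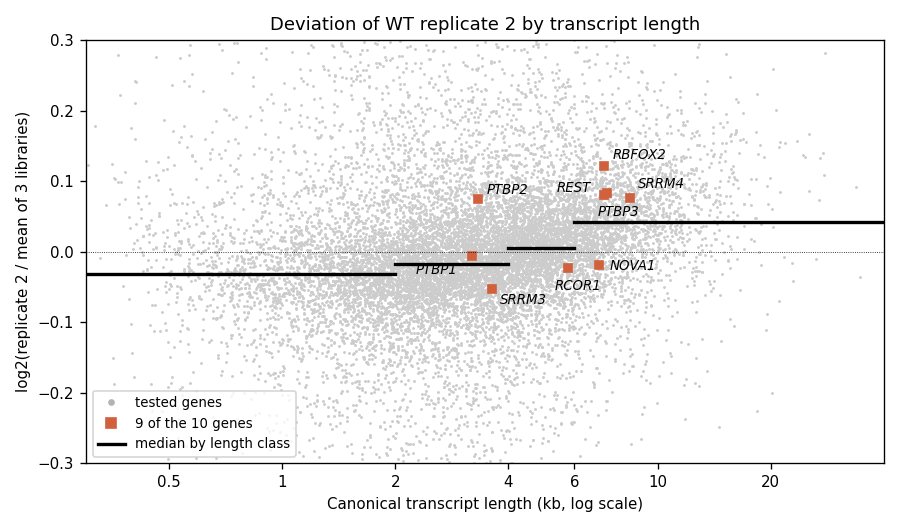
Deviation of WT replicate 2 from the mean of the 3 libraries (log2 scale) against canonical transcript length (log axis), with grey points for tested genes, orange squares for 9 of the 10 genes (NOVA2 was not tested) and bars for the median of each length class. Genes beyond 0.3 in either direction are outside the axis. The medians rise from -0.03 under 2 kb to 0.04 at 6 kb or more, and SRRM4, REST, PTBP3 and RBFOX2 lie above the bar of their class.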

How the data were processed

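Only the 3 WT libraries of 22Rv1 cells entered the analysis. The authors aligned paired-end RNA-seq reads with HISAT2 to GRCh37, obtained gene counts with HTSeq from a GENCODE annotation, and scaled them in DESeq2. What they deposited is a signal, each gene's count over its library's size factor, to 1 decimal. Neither strandedness nor the treatment of multi-mapped reads is given in the sources used here.

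Reads were recovered from the steps of the deposited values, and 100% came out whole within a tolerance of 0.051 normalized counts. Recovered totals were 38252744, 35675670 and 38629080 reads. The 29000 rows included 1976 repeats of a neighbouring row, which were merged. Symbols, positions and lengths came from GENCODE models lifted to GRCh37, and 86.1% of the identifiers matched a symbol. CPM used TMM library sizes from edgeR 4.0.16 (R 4.3.3), with DESeq2 1.42.0 as an alternative. The chi-square test, run in scipy 1.17.1 with numpy 2.4.6 and pandas 2.3.3, was limited to genes averaging 10 reads or more. Calls were made at an adjusted p under 0.05. The test was tried on simulated counts that held only counting noise around set levels. The real libraries varied by more than that, so the trial does not show how the test behaves on them. Near-identical copies (98% identity over at least 50% of the length) were sought with minimap2 2.31, and none was found for the 10 genes. The search listed no alignment to another gene even below these limits. It was not tried on known copies, so their absence is not shown. Promoter sequences came from RefSeq on GRCh38.p14, and figures from matplotlib 3.10.9.

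The 10 genes and the gene lists were chosen with earlier results of these data known, and the search for RE1 letters was chosen after levels had been seen. From each list, the count expressed, the highest and lowest expressed gene and those at 3 reads or fewer in every library were named, with all genes of the paralog families. The rule was followed except for 1 result, which is not reported here. The 4 genes with both RE1 parts, and the other genes of a short list that did not pass, were named after their values were seen. Where nothing states separate cultures, p-values measure only the spread between these samples.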

Additional observations from a re-analysis of the deposited data

How the results depend on the processing

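The 9 genes called expressed stayed 9 at 0.5 and 2 CPM, without TMM, with DESeq2 size factors, without merging repeat rows and without each library. The number of the 10 genes that differed between libraries went from 5 to 0 with the chi-square scaled by level and to 0 with the dispersion of edgeR added. Leaving out a library gave 2 to 4, the lowest without replicate 2, which called PTBP1 and PTBP3. Shares of all genes called with a library left out are not given here. Ratios between genes moved with the length used. With merged exons, SRRM4 to REST was 2.37, SRRM4 to SRRM3 3.57, RCOR1 to REST 0.794, PTBP1 to PTBP2 47.2 and PTBP1 to PTBP3 2.43. With coding length they were 5.53, 6.78, 1.18, 16.8 and 2.09, so that RCOR1 stood above REST. Merged exons left 2 of the 10 genes at their place in the order. These shifts follow from the lengths alone, since the counts were the same. The NOVA1 to NOVA2 ratio, with a mean of 260 over the libraries, ran from 213 to 350 when a library was left out, the highest without replicate 2, which holds 12 of the 18 NOVA2 reads. All 50 recomputed levels stayed within 1 SD, but this is no evidence that the levels are stable. With so few libraries, leaving out any of them cannot move the mean by 1 SD, so those values could not have failed. The levels with TMM or DESeq2 size factors are the same reads rescaled. No paired analysis was possible because there is a single group. Isoforms and exons cannot be read from gene counts, and depth limits only NOVA2 among the 10 genes.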

Other observations

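Other families of tissue-specific splicing regulators were measured in the same libraries, and in most of them a widely expressed member held the bulk of the level per kilobase. ELAVL1, the ubiquitous RNA-stabilising member of its family, made up 90.9% of the summed level and the neuronal ELAVL2 8.55%, while ELAVL3 had 6, 23 and 6 reads and ELAVL4 10, 14 and 16. Replicate 2 was the highest library for ELAVL3, as it was for NOVA2. Both held few reads, and other such genes went either way. RBFOX1 was also highest in replicate 2, whereas RBFOX3 was lowest there and ELAVL4 was highest in replicate 3. CELF1 made up 75.0% of the CELF level, but the neuronal CELF3 was present at 146 ± 0.908 normalized counts per kilobase (SD, n = 3) and 12.1%, followed by CELF5 at 7.54%, CELF6 at 3.85% and CELF4 at 1.49%, and CELF2 had 0, 1 and 0 reads. MBNL1 made up 82.7%, MBNL2 13.8% and MBNL3 3.48% of the MBNL level. KHDRBS1 made up 96.2% and KHDRBS2 3.45% of the KHDRBS level, and KHDRBS3 had 27, 24 and 18 reads. In all, 15 of the 21 listed regulators were expressed, or 71.4% against 47.7% of all counted genes, from KHDRBS1 at 3004 ± 53.6 per kilobase to CELF4 at 18.0 ± 3.76 (SD, n = 3).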
